A study of Cricetulus griseus with 9 samples.

Results

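Matrix, TGF-beta and myofibroblast-type genes were represented by 10 genes of 6753 in a table of RNA levels from MI5-4 cells, a line derived from Chinese hamster ovary (CHO) cells. The genes were Tgfbr2, Thbs1, Ccn2, Ankrd1, Fn1, Col3a1, Col6a2, Col12a1, Vim and S100a6. All 10 had a row in the table, and all passed the filter on low values. They were chosen by their CPM values in these same libraries and contrasts, known from earlier results, so their levels are given as a description and without a test. The libraries formed 3 groups of 3: cells whose label gives expression of wild-type HK2 (WTHK2), empty-vector cells kept for 24 h with 10 mM sodium lactate (LAC), and empty-vector cells without lactate (EV). The labels call the EV cells hexokinase null, LAC cells were of the same kind, and all groups grew in MEM alpha medium with glucose and serum. The promoter of the construct, the species of its HK2 and whether each line was a single clone are not stated in the labels. Sodium and lactate were added together, so their parts cannot be told apart.

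TGF-beta is a secreted growth factor that binds a type II receptor, which then switches on a type I receptor and, through it, the SMAD transcription factors. In fibroblasts and stellate cells this pathway is known for raising fibronectin, collagens and CCN2, and thrombospondin 1 is known for releasing TGF-beta from its latent complex. The transcription cofactors YAP and TAZ, which respond to cell shape and tension, act on some of the same genes, CCN2 and ANKRD1 among them. Myofibroblasts are matrix-making, contractile cells of wounds and fibrosis, and vimentin and S100A6 are common in mesenchymal cells of many kinds, CHO cells included. MI5-4 cells are an ovary-derived line and not myofibroblasts, so the name describes the genes and not the cells.

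Effective library sizes ran between 18050959 and 26238659 reads, and the values are CPM normalized by the authors, that is reads per gene relative to the size of the library. A CPM value is not divided by gene length, so levels are compared between groups within a gene and not between genes. Hk2, the gene that the construct is meant to supply, had 65.3 ± 1.33 CPM in the libraries labelled WTHK2, 67.8 ± 2.92 in LAC and 67.3 ± 2.11 in EV (mean ± SD, n = 3 each). It was not higher in WTHK2 than in EV (log2 fold change -0.044, SE 0.054, limma adjusted p = 0.522), so every direction printed for these libraries depends on their label alone. Hk1 had 285 ± 7.63 CPM in WTHK2, 302 ± 2.22 in LAC and 324 ± 7.09 in EV. The label hexokinase null thus does not mean that RNA of these genes was missing. Of 7 mesenchymal marker genes Vim, Fn1 and S100a6 were in the table, and all of these are members, chosen from its rows. Col1a1, Col1a2, Cdh2 and S100a4 were not analysed here. In the table were 0 of 12 leukocyte, 0 of 12 epithelial and 0 of 10 endothelial markers. Since its lowest gene mean was 20.4 CPM, weaker expression of the unlisted markers cannot be read from it. Of the transcripts of the mitochondrial genome, 4 were in the table. Their median log2 difference from the EV mean was 0.40 to 0.73 per library in WTHK2 and 0.45 to 0.80 in LAC. Genes on a hand-written list for long proteins were mostly lower against EV. At a limma adjusted p under 0.05, 72 of 95 were called lower in WTHK2 (median log2 fold change -0.25) and 81 of 95 in LAC (median -0.28). Of all genes, 25.4% were called lower in WTHK2 and 27.1% in LAC.

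The members did not move as a single block. Against EV, Thbs1, Ccn2, Col3a1, Vim, S100a6 and Tgfbr2 were higher and Fn1, Col6a2, Col12a1 and Ankrd1 lower in the libraries labelled WTHK2. With lactate, Ccn2, Ankrd1 and S100a6 were higher and Fn1, Thbs1, Tgfbr2 and Col12a1 lower. Thbs1, Tgfbr2 and Ankrd1 lay on opposite sides of EV in the libraries labelled WTHK2 and in LAC. Fn1, Ccn2, S100a6 and Col12a1 lay on the same side of EV in both. Col3a1, Vim and Col6a2 stood apart from EV mainly in the libraries labelled WTHK2. Both comparisons with EV use the same 3 EV libraries. In bulk RNA, fewer cells with a transcript and less of it per cell cannot be told apart.

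**Figure D1:**
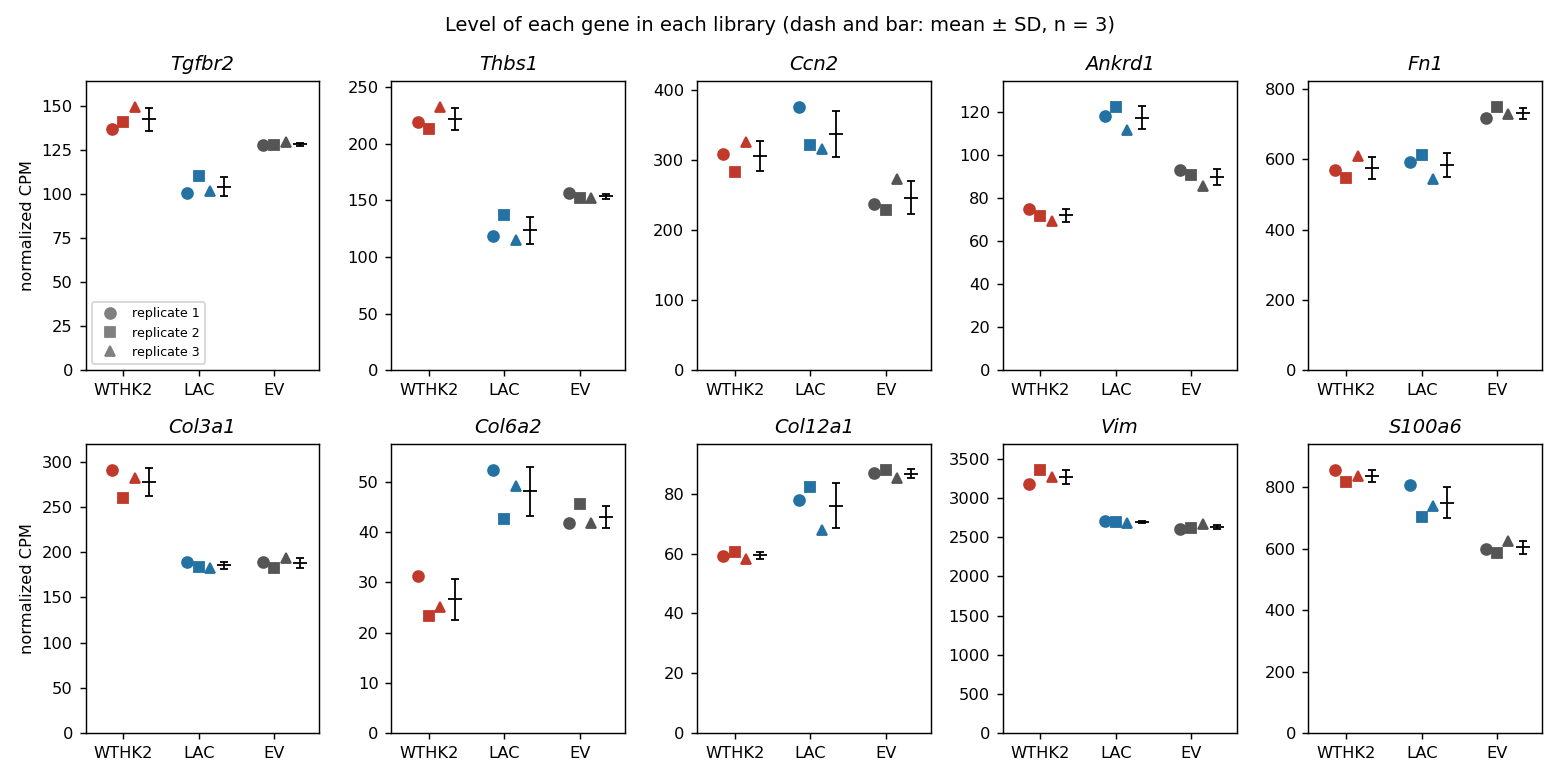
Normalized CPM (vertical axes, each starting at 0) of the 10 genes in the 3 WTHK2, 3 LAC and 3 EV libraries, with symbols for replicate numbers and a dash and bar for the mean ± SD. Thbs1 stood at 214 to 232 CPM in WTHK2, 115 to 137 in LAC and 152 to 156 in EV, while Fn1 stood at 547 to 609.9 CPM in WTHK2, 546 to 611 in LAC and 717 to 748 in EV.

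Tgfbr2, the type II receptor that binds TGF-beta, had 137, 141 and 149 CPM in the libraries labelled WTHK2, 100.3, 110.4 and 102 CPM in LAC, and 128, 128 and 129 CPM in EV. WTHK2 was the highest group and LAC the lowest, and no pair of groups overlapped. The mean was 142 ± 6.32 CPM in WTHK2, 104 ± 5.48 in LAC and 128 ± 0.880 in EV (SD, n = 3 each). Fold changes here and below are log2 differences of CPM plus 1 with a standard error (SE) from a limma fit to all genes. For Tgfbr2 they were 0.15 (SE 0.047) in WTHK2 against EV, -0.30 (SE 0.047) in LAC against EV and 0.45 (SE 0.047) in WTHK2 against LAC. The first of these was 0.11 without WTHK2 replicate 3, the highest library of its group.

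Tgfbr1, the type I receptor that acts with Tgfbr2, was lower than EV in both other groups. It had 35.5 ± 0.931 CPM in WTHK2, 33.3 ± 1.12 in LAC and 43.5 ± 3.65 in EV, with log2 fold changes of -0.28 (SE 0.070, limma adjusted p = 0.00261) in WTHK2 and -0.37 (SE 0.070, limma adjusted p = 2.27e-04) in LAC. The CPM of Tgfbr2 over that of Tgfbr1 was 4.01 ± 0.115 in WTHK2, 3.13 ± 0.0605 in LAC and 2.96 ± 0.267 in EV. This ratio is not one of molecules, since CPM is not divided by length, and only its change between groups can be read. WTHK2 libraries lay above all LAC and EV libraries, and the LAC and EV ranges overlapped. Tgfb1, the ligand, stood at 93.5 ± 5.24 CPM in WTHK2, 102 ± 3.54 in LAC and 88.4 ± 1.27 in EV. It was higher in LAC than in EV by 0.20 (SE 0.050, limma adjusted p = 0.00243), and in WTHK2 the difference of 0.08 did not pass (limma adjusted p = 0.213). Smad4, the SMAD partner shared by TGF-beta and BMP signals, was lower in LAC than in EV (-0.31, limma adjusted p = 0.00496), and its value in WTHK2 of -0.16 did not pass (limma adjusted p = 0.121).

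Thbs1, which codes for the secreted matricellular protein thrombospondin 1, had 219, 214 and 232 CPM in the libraries labelled WTHK2. It had 119, 137 and 115 CPM in LAC and 156, 152 and 152 CPM in EV. All WTHK2 libraries were above EV, all LAC libraries were below it, and the groups did not overlap. The log2 fold change was 0.53 (SE 0.053) in WTHK2 against EV, -0.32 (SE 0.053) in LAC against EV and 0.84 (SE 0.053) in WTHK2 against LAC. The third value, a fold of 1.79, ranked 5 of 6753 genes by size in that comparison. The CPM of Thbs1 over that of Fn1, another secreted glycoprotein of the matrix, was 0.385 ± 0.00490 in WTHK2, 0.212 ± 0.0120 in LAC and 0.210 ± 0.00744 in EV. LAC and EV overlapped in this ratio, as both genes were lower in LAC, and WTHK2 stood apart from both.

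Ccn2, or connective tissue growth factor, a matricellular protein that acts downstream of TGF-beta and YAP, had 309, 283 and 325 CPM in the libraries labelled WTHK2. It had 375, 322 and 315 CPM in LAC and 238, 228 and 272 CPM in EV. Every WTHK2 and LAC library was above every EV library, and WTHK2 and LAC overlapped. Its log2 fold change was 0.31 (SE 0.064) in WTHK2 against EV and 0.45 (SE 0.064) in LAC against EV. LAC replicate 1 was the highest library, and the LAC value was 0.37 when the first replicates of both WTHK2 and LAC were left out. Those libraries also held the most mitochondrially encoded RNA of their groups (0.73 in WTHK2 and 0.80 in LAC, as log2 values above the EV mean), and its part in the result was not tested. Ccn1, a relative of Ccn2 and also a YAP target, was higher than EV by 0.25 (limma adjusted p = 2.51e-04) in WTHK2 and 0.37 (limma adjusted p = 6.36e-06) in LAC. The CPM of Ccn2 over that of Ccn1 overlapped between all 3 groups, at 1.72 ± 0.114 in WTHK2, 1.76 ± 0.124 in LAC and 1.65 ± 0.0873 in EV.

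Ankrd1, an ankyrin repeat protein of the nucleus and, in heart muscle, of the sarcomere, is a commonly read target of YAP beside Ccn2. It had 74.9, 71.5 and 69.3 CPM in the libraries labelled WTHK2, 118, 122 and 112 CPM in LAC, and 92.9, 90.8 and 85.6 CPM in EV. LAC was the highest group and WTHK2 the lowest, and no pair of groups overlapped. Log2 fold changes were -0.32 (SE 0.052) in WTHK2 against EV, 0.38 (SE 0.052) in LAC against EV and -0.70 (SE 0.052) in WTHK2 against LAC. In the libraries labelled WTHK2, then, Ankrd1 was lower than EV while Ccn2 and Ccn1 were higher. The CPM of Ankrd1 over that of Ccn2 was 0.236 ± 0.0205 in WTHK2, 0.349 ± 0.0326 in LAC and 0.368 ± 0.0465 in EV, with WTHK2 below both and LAC and EV overlapping. Yap1 and Wwtr1, which code for YAP and TAZ, were both lower than EV. Yap1 had log2 fold changes of -0.16 (limma adjusted p = 0.00826) in WTHK2 and -0.21 (limma adjusted p = 9.48e-04) in LAC. Those of Wwtr1 were -0.32 (limma adjusted p = 0.00393) in WTHK2 and -0.42 (limma adjusted p = 3.83e-04) in LAC.

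**Figure D2:**
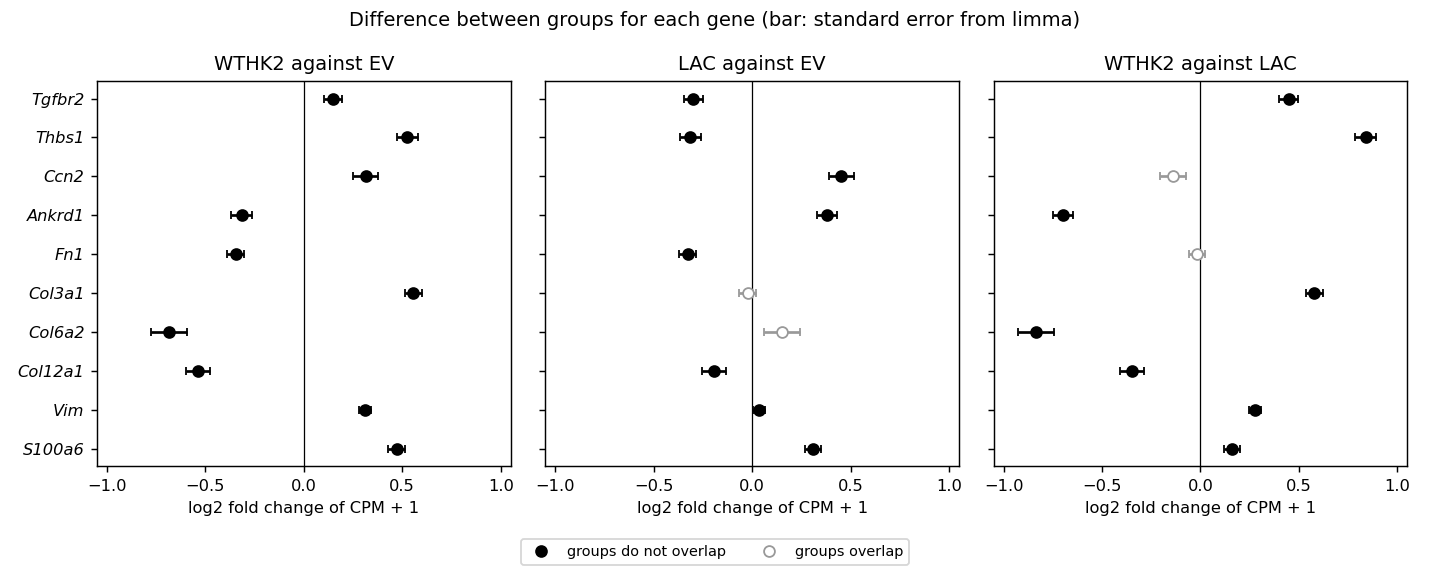
Log2 fold change of CPM plus 1 (horizontal axis) of each gene in WTHK2 against EV, LAC against EV and WTHK2 against LAC, with limma standard errors as bars and open symbols where the ranges of the libraries overlap. Thbs1 lies at 0.53, -0.32 and 0.84 in the 3 panels, Ankrd1 at -0.32, 0.38 and -0.70, and Fn1 at -0.35, -0.33 and -0.02.

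Fn1, fibronectin, a matrix glycoprotein that links integrins to collagen, had 571, 547 and 609.9 CPM in the libraries labelled WTHK2. It had 592, 611 and 546 CPM in LAC and 717, 748 and 728 CPM in EV. All 6 libraries of WTHK2 and LAC were below all EV libraries, and WTHK2 and LAC overlapped. The log2 fold change was -0.35 (SE 0.043) in WTHK2 against EV and -0.33 (SE 0.043) in LAC against EV. Between WTHK2 and LAC it was -0.018 (SE 0.043), with a sign that changed among the alternative settings. Genes for long proteins had medians of -0.25, -0.28 and 0.025 in these 3 comparisons. The part of that trend in the values of Fn1 was not tested. Itga5 and Itgb1 code for the chains of the main fibronectin receptor. Itga5 was lower than EV in both groups (-0.15 in WTHK2, limma adjusted p = 0.0127, and -0.25 in LAC, limma adjusted p = 1.97e-04). Itgb1 was lower in LAC (-0.18, limma adjusted p = 3.94e-04), and in WTHK2 it stood at 0.01 (limma adjusted p = 0.766). The Itga5 call in WTHK2 was lost without WTHK2 replicate 2, EV replicate 1 or EV replicate 3.

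Col3a1, the chain of fibrillar type III collagen, had 291, 259.9 and 282 CPM in the libraries labelled WTHK2. It had 189, 184 and 183 CPM in LAC and 189, 183 and 193 CPM in EV. WTHK2 was above all other libraries, and the LAC range lay within that of EV apart from the value of LAC replicate 3, just below the lowest EV library. Its log2 fold change was 0.56 (SE 0.043) in WTHK2 against EV, a fold of 1.47, and 0.58 (SE 0.043) in WTHK2 against LAC. In LAC against EV it was -0.02 (SE 0.043), and 0.019 with all libraries rescaled to a common median. Serpinh1, the chaperone that collagen chains need in the endoplasmic reticulum, had 451 ± 3.69 CPM in WTHK2, 355 ± 4.26 in LAC and 318 ± 9.46 in EV. It was higher than EV by 0.50 (SE 0.034, limma adjusted p = 2.18e-09) in WTHK2 and by 0.16 (SE 0.034, limma adjusted p = 7.53e-04) in LAC, and higher in WTHK2 than in LAC by 0.34 (SE 0.034, limma adjusted p = 4.80e-07).

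Col6a2, a chain of the microfibril-forming type VI collagen, rested on the fewest reads of the 10 genes. It had 31.3, 23.4 and 25.2 CPM in the libraries labelled WTHK2, 52.4, 42.7 and 49.3 CPM in LAC, and 41.8, 45.7 and 41.9 CPM in EV. WTHK2 was below all other libraries, and LAC and EV overlapped. The log2 fold change was -0.68 (SE 0.091) in WTHK2 against EV, a fold of 0.62, and -0.84 (SE 0.091) in WTHK2 against LAC. It was 0.15 (SE 0.091) in LAC against EV, with 0.089 without LAC replicate 1 and 0.23 without LAC replicate 2. That was the LAC library within the EV range, and the other two lay above all EV libraries. Leaving out the first replicates of both WTHK2 and LAC gave -0.80 in WTHK2 against EV, since WTHK2 replicate 1 was the highest of its group.

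Col6a1 codes for the chain that pairs with that of Col6a2 in type VI collagen, and the genes are next to each other in the reference gene order. In the libraries labelled WTHK2, Col6a1 was higher than EV while Col6a2 was lower. In LAC the means of both genes were above EV, with overlap for Col6a2. Col6a1 had 35.3 ± 4.14 CPM in WTHK2, 31.0 ± 2.16 in LAC and 26.6 ± 1.13 in EV. Its log2 fold change was 0.39 (SE 0.083, limma adjusted p = 7.62e-04) in WTHK2 against EV. In LAC against EV it was 0.21 (SE 0.083, limma adjusted p = 0.0401), a call that was lost without LAC replicate 3 or without any 1 of the EV libraries. The CPM of Col6a2 over that of Col6a1 was 0.785, 0.686 and 0.790 in the libraries labelled WTHK2. It was 1.75, 1.45 and 1.48 in LAC and 1.57, 1.65 and 1.65 in EV, so that all WTHK2 libraries lay below all others and LAC and EV overlapped. Col6a3 was not analysed here.

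Col12a1, a collagen that lies on the surface of fibrils and whose chain is very long, had 59.3, 60.6 and 58.3 CPM in the libraries labelled WTHK2. It had 77.9, 82.4 and 67.7 CPM in LAC and 87.1, 87.9 and 85.2 CPM in EV. WTHK2 was the lowest group, EV the highest, and no pair overlapped. Its log2 fold change was -0.54 (SE 0.061) in WTHK2 against EV, -0.19 (SE 0.061) in LAC against EV and -0.35 (SE 0.061) in WTHK2 against LAC. LAC replicate 3 was the lowest of its group, and without it the LAC value was -0.11. Genes for long proteins had medians of -0.25 in WTHK2 and -0.28 in LAC against EV, and of 0.025 in WTHK2 against LAC. The part of that trend in the values of Col12a1 was not tested.

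Vim, vimentin, the main intermediate filament of mesenchymal cells, had 3182, 3359 and 3266 CPM in the libraries labelled WTHK2. It had 2710.2, 2689 and 2687 CPM in LAC and 2608, 2622 and 2665 CPM in EV. WTHK2 was above all other libraries, while LAC stood just above EV without overlap. The log2 fold change was 0.31 (SE 0.031) in WTHK2 against EV and 0.28 (SE 0.031) in WTHK2 against LAC. In LAC against EV it was 0.035 (SE 0.031), and its sign turned under quantile normalization, at -0.062. Quantile normalization also moved the value in WTHK2 against EV to 0.15, and rescaling each library to the same median moved it to 0.35.

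S100a6, a small calcium-binding protein also called calcyclin, had 857, 818 and 839 CPM in the libraries labelled WTHK2. It had 807, 705 and 741 CPM in LAC and 600.4, 587 and 627 CPM in EV. The groups ran in the order WTHK2, LAC, EV with no overlap, although LAC replicate 1 lay close to the lowest WTHK2 library. Log2 fold changes were 0.47 (SE 0.042) in WTHK2 against EV, 0.31 (SE 0.042) in LAC against EV and 0.16 (SE 0.042) in WTHK2 against LAC. With the first replicates of both WTHK2 and LAC left out, the LAC value was 0.26. The related S100a10 and S100a11 were higher than EV too. S100a10 had log2 fold changes of 0.27 (limma adjusted p = 1.99e-05) in WTHK2 and 0.24 (limma adjusted p = 7.33e-05) in LAC. S100a11 had 0.26 (limma adjusted p = 1.14e-05) in WTHK2 and 0.22 (limma adjusted p = 5.61e-05) in LAC.

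Counts over the members are given with the share of all genes beside them, and nothing is read from them because the members were chosen by their values in these contrasts. In WTHK2 against EV the groups did not overlap for 10 of 10 members, 6 higher and 4 lower, and for 57.1% of all genes. In LAC against EV they did not overlap for 8 of 10, 4 higher and 4 lower, and for 57.8% of all genes, with overlap in Col3a1 and Col6a2. In WTHK2 against LAC they did not overlap for 8 of 10, 5 higher and 3 lower, and for 29.0% of all genes, with overlap in Fn1 and Ccn2. The median absolute log2 fold change of the 10 members was 0.41, 0.30 and 0.40 in these 3 comparisons, and that of all genes was 0.13, 0.14 and 0.076. Thbs1 at 5, Col6a2 at 6 and Ankrd1 at 13 had the highest ranks by size among 6753 genes in WTHK2 against LAC, and Col6a2 at 37 in WTHK2 against EV.

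How far the libraries of a group spread depended on the gene. Each member value rested on 554 to 88146 reads, which gives a counting error (the reciprocal of the square root of the reads) of 0.376% to 4.16% of the value. The spread between the 3 libraries, as SD over mean, was above that error in 26 of 30 member groups. Col6a2 in WTHK2 had the widest spread, 15.6% against a counting error of 4.16%. Ccn2 spread by 9.74% in LAC and 9.44% in EV against counting errors of 1.21% and 1.32%. Vim spread by 2.71% in WTHK2, 0.473% in LAC and 1.14% in EV, and Tgfbr2 in EV by 0.686%, below its counting error of 1.83%. The labels do not say that replicates were separate cultures, so all p-values here measure only the spread between these libraries, which may be technical.

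**Figure D3:**
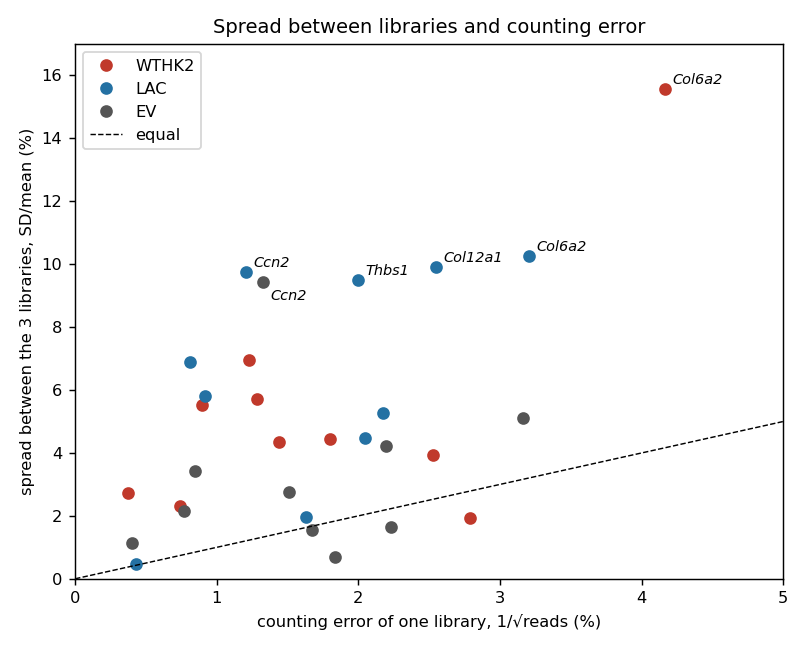
Spread between the 3 libraries of a group (SD over mean, %, vertical axis) against the counting error of a library (%, horizontal axis) for the 10 genes in WTHK2, LAC and EV, with a dashed line where both are equal. Of 30 points, 26 lie above the line, and Col6a2 in WTHK2 is the highest at 15.6%.

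For 8 members, all but Tgfbr2 and Thbs1, the 2 genes of closest pattern are given, by the root mean square (RMS) difference of log2(CPM + 1) over the 9 libraries after each gene was centred on its own mean. The measure follows group differences and shared library effects alike, and says nothing of shared function or control. Of the 8, S100a6 had the closest match, Timp1, an inhibitor of matrix proteases, with an RMS difference of 0.019 beside an RMS of 0.203 for S100a6 itself. Manf, a secreted protein of endoplasmic reticulum stress, followed at 0.020. Col3a1 was closest to Sqle, squalene epoxidase, at 0.067 and to Wrap73 at 0.070 (own RMS 0.272).

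Fn1 was closest to Tbck at 0.033 and to Pi4ka, a lipid kinase, at 0.042 (own RMS 0.169). Col12a1 was closest to Lama2, a laminin chain, at 0.064 and to the kinase Jak2 at 0.065 (own RMS 0.234). Vim was closest to Wbp2 at 0.034 and to Hmox1, heme oxygenase, at 0.036 (own RMS 0.141). Ccn2 was closest to DNPH1 at 0.065 and to ctsz, cathepsin Z, at 0.072 (own RMS 0.215). Ankrd1 and Col6a2 had the most distant matches of the 8: Vegfa at 0.123 and Id3 at 0.125 for Ankrd1 (own RMS 0.290), and Noxa1 at 0.118 and Dlx2 at 0.141 for Col6a2 (own RMS 0.385).

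**Figure D4:**
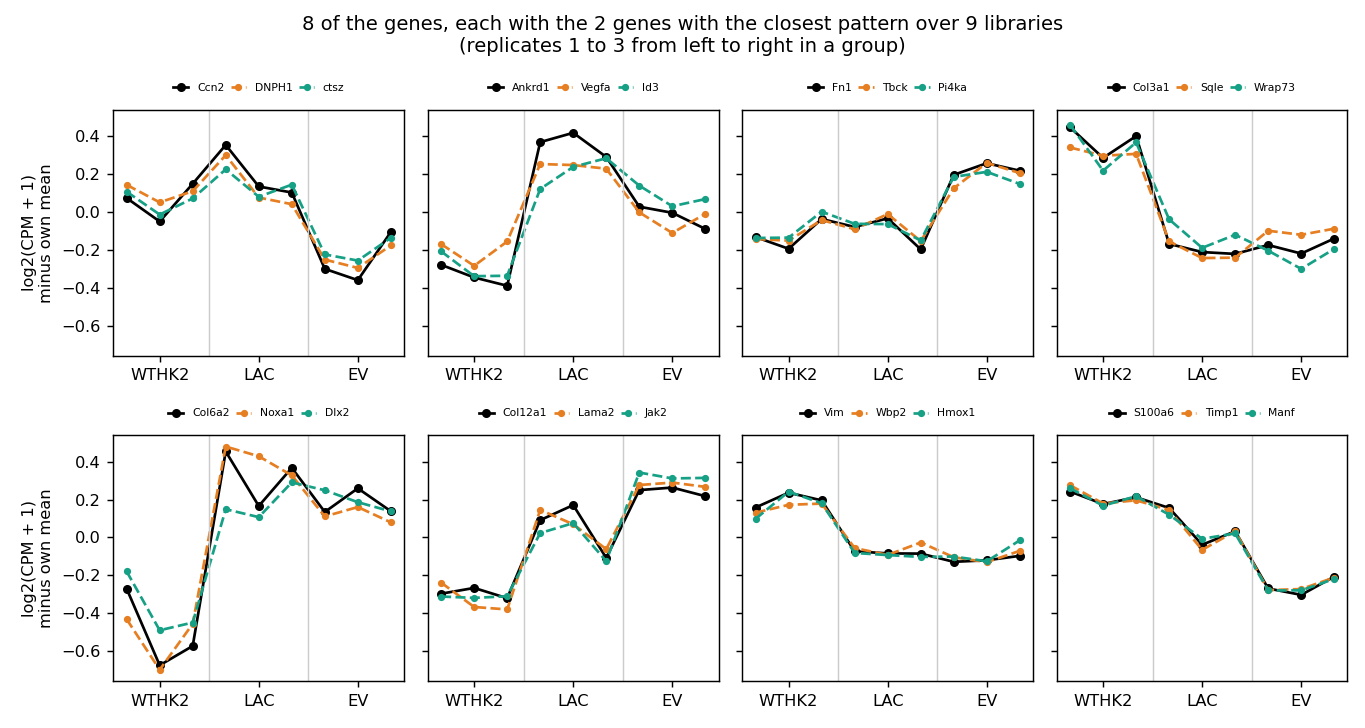
Log2(CPM + 1) minus each gene's own mean (vertical axis) in the 9 libraries, WTHK2, LAC and EV from left to right and replicates 1 to 3 within a group, for 8 of the 10 genes (black) and the 2 genes of closest pattern (coloured). S100a6 and Timp1 differ by an RMS of 0.019, and Ankrd1 and Vegfa by 0.123.

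The members' levels were also set beside those of their neighbours in the reference gene order, 7 listed genes on each side. Of the members, 9 of 10 could be placed, all but S100a6. Median log2 fold changes of the neighbours in WTHK2 against EV ran between -0.12 for Col12a1 and 0.12 for Vim in 8 of the 9 places. Thbs1, at 0.53, had neighbours with a median of -0.042, and Col3a1, at 0.56, had neighbours with a median of 0.0037. Around Ankrd1 the median was -0.27 in WTHK2 against EV, close to the -0.32 of Ankrd1 itself, and -0.12 in LAC against EV, where Ankrd1 stood at 0.38. Col6a2 had neighbours with medians of -0.028 in WTHK2 and -0.020 in LAC against EV, with Col6a1 among them.

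The other genes of the pathways were counted in 9 lists, with the members left out, as genes that passed a limma adjusted p of 0.05 over all genes. Of all 6753 genes, 21.0% were called higher and 25.4% lower in WTHK2 against EV. In LAC against EV 22.4% were called higher and 27.1% lower, and in WTHK2 against LAC 8.37% higher and 7.76% lower. Called higher were 45.3% of the called genes in WTHK2 and 45.3% in LAC against EV, but 57.3% in WTHK2 and 58.6% in LAC with all libraries rescaled to a common median, so counts of higher and lower genes depend on the scaling. The all-gene median log2 fold changes were -0.0082 in WTHK2 and -0.0035 in LAC against EV. No enrichment was tested.

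Around Tgfbr2, TGF-beta and SMAD genes were lower more often than higher. Of 35 others in the table, 2 were called higher and 17 lower in WTHK2 against EV (median -0.11), and 4 higher and 17 lower in LAC against EV (median -0.11). With all libraries rescaled to a common median, 4 were higher and 13 lower in WTHK2, and 5 higher and 12 lower in LAC. The lower count in LAC was 11 without LAC replicate 3. Smurf2, a ubiquitin ligase of the pathway's receptors and SMADs, had -0.39 in WTHK2 (limma adjusted p = 7.06e-07) and -0.21 in LAC (limma adjusted p = 3.93e-04). Ltbp1, which tethers latent TGF-beta to the matrix, had -0.21 in WTHK2 and -0.28 in LAC, and Tgfbrap1, a receptor-associated protein, had -0.37 in WTHK2 and -0.52 in LAC. Dab2, an adaptor of receptor uptake, was highest in WTHK2 and lowest in LAC like Tgfbr2, with 104 ± 4.37 CPM in WTHK2, 72.2 ± 2.65 in LAC and 79.9 ± 3.02 in EV. It was higher in WTHK2 than in LAC by 0.52 (limma adjusted p = 4.30e-07). In LAC against EV Dab2 stood at -0.14 (limma adjusted p = 0.026). That call was lost in 7 alternative settings, median rescaling and quantile normalization among them. Id3, a target of BMP signals, had 91.7 ± 4.90 CPM in WTHK2, 131 ± 7.57 in LAC and 119 ± 4.64 in EV, and was lower in WTHK2 than in LAC (-0.51, limma adjusted p = 6.60e-07).

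Around Ccn2 and Ankrd1, the Hippo and YAP list had 2 of 39 others called higher and 24 lower in WTHK2 against EV (median -0.17), and 3 higher and 25 lower in LAC against EV (median -0.20). With all libraries rescaled to a common median, 6 were called higher and 22 lower in each comparison. The 2 called higher in WTHK2 became 4 without WTHK2 replicate 2 and 5 without LAC replicate 2. Amotl1, a scaffold that holds YAP, had -0.65 in WTHK2 (limma adjusted p = 5.88e-07) and -0.73 in LAC (limma adjusted p = 4.49e-07). Among YAP targets, Myof had -0.53 in WTHK2 and -0.26 in LAC, Crim1 had -0.21 in WTHK2 and -0.44 in LAC, and Asap1 had -0.32 in WTHK2 and -0.43 in LAC. Ccn1, given above, went the other way, and so did Tead3 and, in LAC, Wtip, both picked after their values were seen. Tead3 had 0.26 in WTHK2 (limma adjusted p = 0.00208) and 0.27 in LAC (limma adjusted p = 0.00162). Wtip had 0.34 in LAC (limma adjusted p = 4.15e-04) and 0.13 in WTHK2, which did not pass (limma adjusted p = 0.131). The calls of Tead3 and Wtip were not followed through the alternative settings.

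Structural matrix proteins beside Thbs1, Fn1 and the collagens split in direction. Of 24 others, 10 were called higher and 7 lower in WTHK2 against EV (median 0.061), and 9 higher and 7 lower in LAC against EV (median 0.019), and 6 higher in LAC without EV replicate 1. Efemp1, a fibulin, had 0.48 in WTHK2 and 0.23 in LAC, and Tinagl1, of basement membranes, had 0.30 in WTHK2 and 0.26 in LAC. Lama2 had -0.61 in WTHK2 and -0.23 in LAC. Hspg2, perlecan, had -0.28 in WTHK2 and -0.41 in LAC, and Nid1, nidogen, had -0.20 in WTHK2 and -0.43 in LAC. Tnxb, a tenascin that binds fibrillar collagen, had -0.45 in WTHK2 (limma adjusted p = 1.10e-04) and 0.03 in LAC, which did not pass (limma adjusted p = 0.767). Genes that make and cross-link collagen were higher more often than lower, with 13 of 28 higher and 4 lower in WTHK2 against EV (median 0.13), and 12 higher and 4 lower in LAC against EV (median 0.075). Beside Serpinh1, the collagen chaperone Fkbp10 had 0.37 in WTHK2 and 0.15 in LAC, and Pcolce, which aids procollagen cleavage, had 0.42 in WTHK2 and 0.32 in LAC. Rcn3, of the secretory pathway, had 0.39 in WTHK2 and 0.41 in LAC, while Pxdn, which cross-links type IV collagen, had -0.28 in WTHK2 and -0.45 in LAC.

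Matrix proteases and inhibitors had 6 of 17 called higher and 5 lower in WTHK2 against EV (3 lower without WTHK2 replicate 2), and 8 higher and 3 lower in LAC against EV. Timp1 had 0.47 in WTHK2 and 0.29 in LAC, near the values of S100a6. Adamts7, a metalloprotease, had 0.35 in WTHK2, and Ctsl, cathepsin L, had 0.27 in LAC. Receptors for matrix and their adhesion proteins had 15 of 33 called lower in WTHK2 against EV and 19 of 33 in LAC. They had 5 called higher in WTHK2 and 3 in LAC. The 5 became 2 or 3 without WTHK2 replicate 2 or 3 or without any 1 of the EV libraries, and 9 with all libraries rescaled to a common median. The adhesion protein Tns1 had -0.39 in WTHK2 and -0.51 in LAC, Parva had -0.35 in WTHK2 and -0.37 in LAC, and Tln2 had -0.42 in WTHK2 and -0.43 in LAC. Tns2, a relative of Tns1, was higher, with 0.69 in WTHK2 (limma adjusted p = 9.15e-07) and 0.26 in LAC (limma adjusted p = 0.00846).

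Contractile and actin-bundle genes, read as myofibroblast genes beside Vim, had 10 of 34 called higher and 13 lower in WTHK2 against EV. In LAC they had 8 higher and 14 lower, and 5 higher without EV replicate 2. Myh10, a nonmuscle myosin, had -0.54 in both groups, and the filamin Flna had -0.35 in WTHK2 and -0.28 in LAC. Among the higher genes, picked after their values were seen, the actin-binding tropomyosin Tpm2 had 0.41 in WTHK2 (limma adjusted p = 4.25e-04) and 0.15 in LAC, which did not pass (limma adjusted p = 0.124). Csrp2, a LIM protein of smooth muscle and stellate cells, had 0.32 in WTHK2 (limma adjusted p = 4.14e-04) and 0.31 in LAC (limma adjusted p = 5.96e-04). Acta2 and Tagln, the usual myofibroblast markers, were not analysed here. Filaments, S100 proteins, annexins and galectins had 8 of 20 called higher and 4 lower in WTHK2, and 8 higher and 5 lower in LAC. LGALS1, galectin 1, had 0.47 in WTHK2 and 0.34 in LAC, and Anxa1, annexin A1, had -0.15 in WTHK2 and 0.13 in LAC. Other mesenchymal markers had 1 of 15 called higher and 4 lower in WTHK2 and 5 higher and 5 lower in LAC. The 5 called higher in LAC became 2 or 3 without LAC replicate 1 or 3 or without any 1 of the EV libraries, and the 5 called lower became 3 without EV replicate 1. Zeb1 and Zeb2, repressors of epithelial genes, had -0.30 and -0.40 in WTHK2 and -0.35 and -0.47 in LAC, and Ccl2, a chemokine, had 0.56 in LAC. Twist1, another mesenchymal transcription factor, picked after its values were seen, was higher, with 0.22 in WTHK2 (limma adjusted p = 0.0152) and 0.25 in LAC (limma adjusted p = 0.00550). Its call in WTHK2 was lost without WTHK2 replicate 3 or EV replicate 1.

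**Figure D5:**
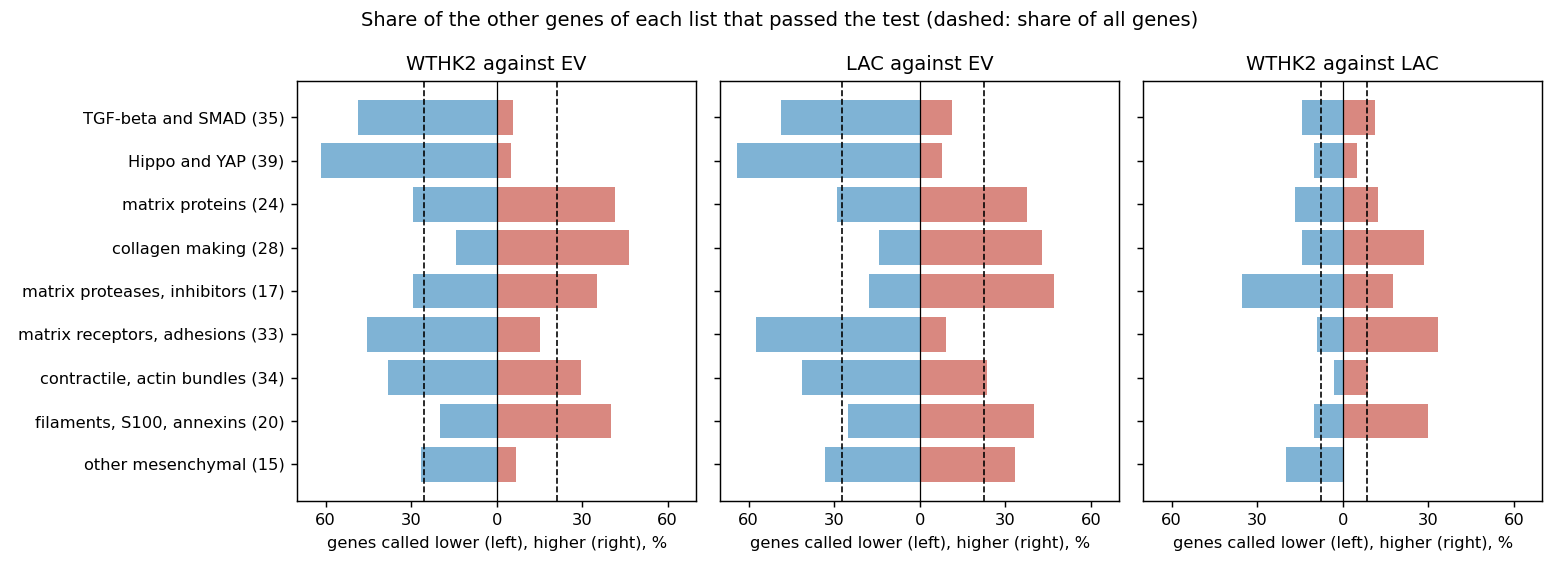
Share of each list's other genes (members left out, number in brackets) called lower (left of 0) and higher (right of 0) in WTHK2 against EV, LAC against EV and WTHK2 against LAC, with dashed lines at the share of all genes. Of 39 Hippo and YAP genes 24 were called lower in WTHK2 and 25 in LAC, where 25.4% and 27.1% of all genes were.

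Between the libraries labelled WTHK2 and LAC, fewer genes of these lists were called than against EV, and the same was true of all genes. Of all genes, 8.37% were called higher and 7.76% lower in WTHK2 against LAC. Receptors and adhesion proteins had 11 of 33 higher in WTHK2 and 3 lower, and 7 higher without LAC replicate 3. Collagen-making genes had 8 of 28 higher and 4 lower, and 4 higher without WTHK2 replicate 3 or LAC replicate 3. Proteases and inhibitors had 3 of 17 higher and 6 lower. Filaments and S100 proteins had 6 of 20 higher and 2 lower, structural matrix proteins 3 of 24 higher and 4 lower, TGF-beta and SMAD genes 4 of 35 higher and 5 lower, Hippo and YAP genes 2 of 39 higher and 4 lower, contractile genes 3 of 34 higher and 1 lower, and other mesenchymal markers 3 of 15 lower. Most of these small counts moved by over 1.5 times when a WTHK2 or LAC library was left out. Pxn, paxillin, an adhesion scaffold, had 71.8 ± 2.37 CPM in WTHK2, 54.1 ± 5.13 in LAC and 63.4 ± 0.741 in EV. It lay on opposite sides of EV, as Thbs1 and Tgfbr2 did, though its call in WTHK2 against EV was lost without WTHK2 replicate 2 or 3 or any 1 of the EV libraries. It was higher in WTHK2 than in LAC by 0.41 (limma adjusted p = 1.18e-04).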

How the data were processed

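The authors deposited normalized CPM for 6753 genes in 9 libraries, made with STAR 2.7.0a, featureCounts 2.0.1 and edgeR 3.8 after cutadapt 1.18 and FastQC 0.11.8, per the submitters' processing notes. No source used here names the genome build or annotation, so no coordinates are printed. RNA was prepared with a Direct-zol kit and a Nugen Universal Plus mRNA-seq kit, per the labels' protocols. Genes with a mean under 20.4 CPM were not analysed here, and the listed genes made up 80.3% to 81.4% of the CPM total. Each library's values were multiples of 1 step (tolerance 0.01 reads), which gave its effective size and reads. Counting errors cover counting only.

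CPM was transformed to log2(CPM + 1), which understates the change of low genes, and fitted with limma 3.58.1 (R 4.3.3, variance trend) over all 9 libraries, with a filter at a mean of 1 CPM that all genes passed. P-values were adjusted by Benjamini-Hochberg over all genes, and called means an adjusted p under 0.05. The fit was tested on simulated data. Members and gene lists were chosen with earlier results of these data known, and the list for long proteins was written by hand. Named genes beside the members were, for each list, up to 3 genes with the smallest adjusted p in each comparison with EV and up to 2 in WTHK2 against LAC, among called genes whose groups did not overlap, with partners by role and the 2 closest in pattern. Not all of them are printed, and some results are not reported here. The role genes Tgfb2, Smad2, Smad3, Smad7, Tead1 and Cd47 were not analysed here. RefSeq gene names (CriGri-PICRH-1.0) matched 6143 genes (91.0%) and served only for gene order. Figures and counts were made with Python 3.11.15, pandas 2.3.3 and matplotlib 3.10.9.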

Additional observations from a re-analysis of the deposited data

How the results depend on the processing

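Alternatives were other pseudocounts (0.25 and 4), other filters, rescaling to a common median, quantile normalization, fits of the compared libraries alone, a constant prior variance, robust moderation, the replicate block, each library left out in turn and, chosen after seeing the data, voom on reads recovered from the CPM steps and leaving out replicate 1 of WTHK2 and of LAC together. The count tools edgeR and DESeq2 were not run, since the values are normalized. Genes called numbered 3131 in WTHK2 against EV (2445 to 3291 with a library left out), 3341 in LAC against EV (2650 to 3511) and 1089 in WTHK2 against LAC (662 to 1279). The lowest of the last were 662 without WTHK2 replicate 3 and 701 without LAC replicate 3. Voom gave 3191, 3353 and 1097. With the replicate block the counts were 3433, 3609 and 1414. Same-numbered libraries correlated between -0.0057 and 0.437 in their deviations, and the other pairs between -0.33 and 0.19. The highest values were in same-numbered pairs, and a shared replicate effect was not tested. The labels state no batch, so the main fit held no block. Of 30 member results under 627 alternatives, 7 moved by more than the spread between replicates: Col12a1 (-0.50) and Vim (0.35) in WTHK2 and Col3a1 (0.019) and Vim (0.077) in LAC against EV under median rescaling, and Vim at 0.15, -0.062 and 0.21 in the 3 comparisons under quantile normalization. The sign changed in Fn1 in WTHK2 against LAC and in Col3a1 and Vim in LAC against EV. The 50 CPM filter removed Col6a2. Of 142 results of other named genes, 125 kept their call in all alternatives, and 17 lost it in at least 1, among them Itga5 and Twist1 in WTHK2, Dab2 and Col6a1 in LAC against EV, and Timp1 and LGALS1 in WTHK2 against LAC. Of 1134 recomputed list counts, 85 moved by over 1.5 times, most of them small. Lower calls against EV ranged between 18 and 25 in WTHK2 and between 19 and 25 in LAC for Hippo and YAP genes, and between 10 and 18 in WTHK2 and between 9 and 18 in LAC for TGF-beta and SMAD genes. The cause of these shifts was not tested.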
